A study of Mus musculus with 6 samples.

Results

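The malate-aspartate and glycerol phosphate shuttles carry the reducing power of cytosolic NADH into mitochondria, and 6 enzymes of these shuttles are described here from the mouse tibialis anterior, a fast muscle of the lower leg. They are the aspartate aminotransferases Got1 and Got2, the malate dehydrogenases Mdh1 and Mdh2, and the glycerol 3-phosphate dehydrogenases Gpd1 and Gpd2. They were chosen by gene symbol from the authors' deposited table of 14617 genes, and all 6 were found in it. The compared mice were PRMT7-/- animals (KO), which lack protein arginine methyltransferase 7, and PRMT7+/+ animals (WT). All were C57BL/6 and 8 months old, with 3 mice of each genotype per the labels. The labels used here do not say how the null allele was made, nor which sex the mice were.

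Glycolysis makes NADH in the cytosol, and the inner mitochondrial membrane does not let NADH through. In the malate-aspartate shuttle, cytosolic Mdh1 uses NADH to turn oxaloacetate into malate, which enters the matrix and is oxidised again by Mdh2. Got2 and Got1 then return the carbon as aspartate, and carriers of the inner membrane exchange malate for 2-oxoglutarate and aspartate for glutamate. In the glycerol phosphate shuttle, cytosolic Gpd1 turns dihydroxyacetone phosphate into glycerol 3-phosphate, and Gpd2, a flavoprotein on the outer face of the inner membrane, passes the electrons to ubiquinone. Fast muscle is known for its high Gpd1 activity.

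The deposited table holds 1 mean of normalized counts per genotype, and every such mean resolved into whole counts from 2 libraries, not 3. They are called library 1 and library 2 of each genotype, and cannot be tied to single mice. No header names the genotype of a column. The first column was read as WT and the next as KO from the word order of the table's name, and every direction given here depends on that reading. The libraries held 22629288 to 24814798 counts over the listed genes. The Prmt7 transcript had 885 and 844 normalized counts in WT against 706 and 718 in KO (FDR 0.587 in the authors' deposited table), which does not check the column order, because the deleted part of the gene is not stated. Xist, transcribed from the inactive X chromosome of female cells, had 10800 and 11546 normalized counts in WT against 1.82 and 1.03 in KO. The 4 Y-linked transcripts looked at were at 0 in every library except KO library 2, where a count of 0 allows up to 3 counts per library. Xist therefore parts WT from KO, and genotype cannot be told apart from whatever Xist marks in any result below. All 9 fast fibre markers were listed and summed to 1911353 to 2275418 normalized counts per library, against 6016 to 9361 for the 7 slow fibre markers.

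The 4 enzymes of the malate-aspartate shuttle fell in KO, and the 2 enzymes of the glycerol phosphate shuttle did not pass the test. The largest fall was in mitochondrial Got2, to 49.8% of the WT mean, followed by cytosolic Mdh1 at 61.1%, cytosolic Got1 at 63.6% and mitochondrial Mdh2 at 70.3%. Gpd1 was at 96.5% and Gpd2 at 99.1% of the WT mean. In the authors' deposited table, 4 of the 6 enzymes had an FDR under 0.05, all lower, where 2.71% of all 14617 listed genes passed in either direction 1.7% passed as lower and 1.01% as higher. Abundant genes passed more often: of the 3938 genes with a mean of at least 1000 normalized counts, which include all 6 enzymes, 4.98% passed as lower and 6.35% in either direction. The enzymes were chosen with earlier results of these data known, so their count is a description. Refitted with limma on the recovered libraries, only Got2 passed an adjusted p under 0.05, where 0.889% of 14053 genes tested passed in either direction and 0.463% as lower.

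Got2, the mitochondrial aspartate aminotransferase, makes aspartate in the matrix from oxaloacetate and glutamate, and is also known as a fatty acid binding protein of the plasma membrane. WT library 1 held 28592 and WT library 2 held 27374 normalized counts, while the KO libraries held 14318 and 13533. The genotypes did not overlap, and the gap between them was many times the gap within either. In the authors' deposited table its log2 ratio was -1.01 (FDR 7.17e-10). The limma log2 difference was -1.01 ± 0.145 (SE, n = 2 libraries per genotype), with a 95% interval of -1.35 to -0.67 and an adjusted p of 0.0417. That call was lost when either WT library was left out, at an adjusted p of 0.173 without WT library 1 and 0.153 without WT library 2, each time with a log2 difference close to -1.

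Got1, the cytosolic aspartate aminotransferase, turns aspartate back into oxaloacetate. It had 16106 and 15807 normalized counts in WT against 10061 and 10236 in KO. Here too the lowest WT library stood well above either KO library, with little spread within a genotype. In the authors' deposited table its log2 ratio was -0.65 (FDR 5.46e-04), while limma gave -0.65 ± 0.133 (SE) with an adjusted p of 0.0698.

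Mdh1, the cytosolic malate dehydrogenase, had 28155 and 26007 normalized counts in WT against 16706 and 16372 in KO. Both KO libraries were again below both WT libraries. Its log2 ratio was -0.71 (FDR 8.07e-05) in the authors' deposited table, and the limma difference was -0.71 ± 0.148 (SE) with an adjusted p of 0.0713.

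Mdh2, the mitochondrial malate dehydrogenase, also works in the tricarboxylic acid cycle. It had 28617 and 30823 normalized counts in WT against 19998 and 21778 in KO. The genotypes did not overlap, but this was the smallest of the 4 falls. In the authors' deposited table its log2 ratio was -0.51 (FDR 0.0137), and limma gave -0.51 ± 0.154 (SE) with an adjusted p of 0.143. After quantile normalization the limma differences of Mdh2 and Mdh1 were -0.20 and -0.40. For each of the 4 enzymes the higher KO library was under the lower WT library. That order held for 26.2% of all genes tested, for 38.9% of the abundant genes, and in either direction for 51.8% of all genes.

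**Figure D1:**
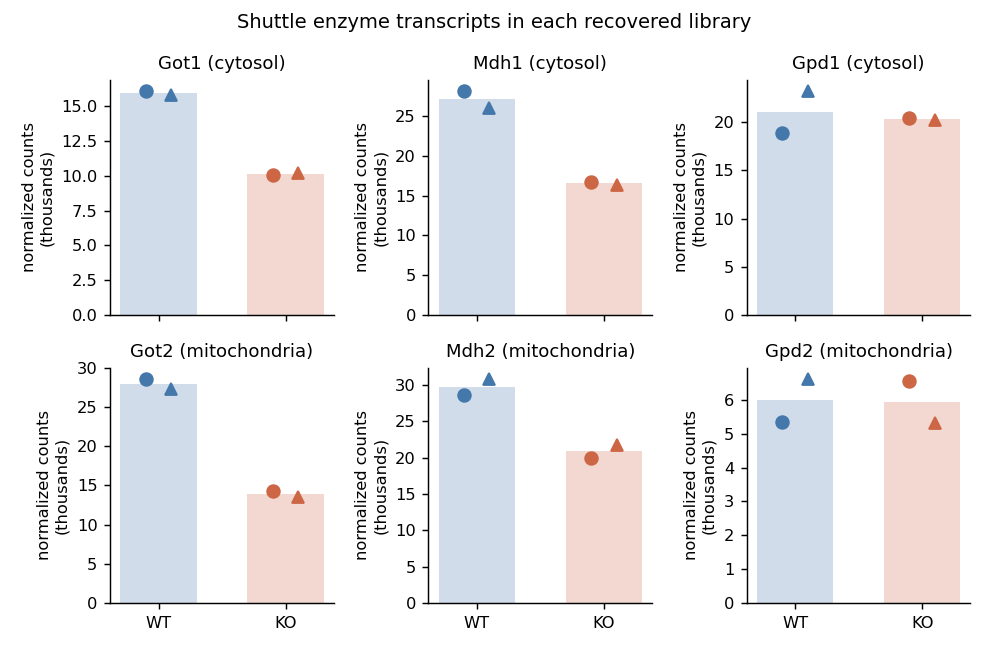
Normalized counts (axis in units of 1000) of the 6 shuttle enzymes in the WT and KO libraries, with cytosolic enzymes in the upper row and mitochondrial enzymes in the lower row. Circles are library 1, triangles library 2 and bars the mean of both. The KO points lie below the WT points for Got1, Got2, Mdh1 and Mdh2 and overlap them for Gpd1 and Gpd2.

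The promoters of the 4 enzymes that fell are shown because these transcripts moved together. Each runs from 250 bases before to 50 bases after the transcript start in RefSeq (build GRCm38.p6, the assembly that mm10 names) and reads 5′ to 3′ on the gene's strand. Capitals mark CCAAT or its reverse complement ATTGG, and the CRE letters TGACGTCA. The windows are chr19:43524556-43524855, minus strand for Got1, chr8:95888352-95888651, minus strand for Got2, chr11:21571885-21572184, minus strand for Mdh1 and chr5:135778399-135778698, plus strand for Mdh2.
Got1: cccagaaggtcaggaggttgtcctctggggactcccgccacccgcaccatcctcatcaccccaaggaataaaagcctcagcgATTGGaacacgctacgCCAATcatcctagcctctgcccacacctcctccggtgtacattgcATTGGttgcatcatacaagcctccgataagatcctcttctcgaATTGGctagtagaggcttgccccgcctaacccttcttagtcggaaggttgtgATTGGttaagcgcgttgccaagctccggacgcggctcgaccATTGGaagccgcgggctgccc
Got2: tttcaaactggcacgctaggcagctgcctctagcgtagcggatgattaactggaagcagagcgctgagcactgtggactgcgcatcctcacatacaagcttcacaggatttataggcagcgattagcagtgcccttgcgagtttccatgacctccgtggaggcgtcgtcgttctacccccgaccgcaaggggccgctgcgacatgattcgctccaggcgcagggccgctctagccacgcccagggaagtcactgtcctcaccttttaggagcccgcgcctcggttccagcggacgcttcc
Mdh1: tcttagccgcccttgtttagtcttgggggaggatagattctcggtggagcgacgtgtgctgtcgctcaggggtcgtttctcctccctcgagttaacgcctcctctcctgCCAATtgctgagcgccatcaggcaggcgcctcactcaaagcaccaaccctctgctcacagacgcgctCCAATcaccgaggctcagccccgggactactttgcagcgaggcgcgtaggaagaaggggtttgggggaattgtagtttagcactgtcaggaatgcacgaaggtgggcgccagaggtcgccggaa
Mdh2: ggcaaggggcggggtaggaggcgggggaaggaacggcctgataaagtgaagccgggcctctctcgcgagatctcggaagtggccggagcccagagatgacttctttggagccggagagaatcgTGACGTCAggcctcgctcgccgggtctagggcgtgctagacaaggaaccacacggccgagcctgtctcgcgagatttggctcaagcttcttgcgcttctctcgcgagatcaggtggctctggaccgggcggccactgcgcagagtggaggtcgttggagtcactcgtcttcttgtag

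Got1's window held 6 matches to CCAAT on either strand, and Mdh1's held 2, at 141 and 74 bases before the start. Of 32851 RefSeq promoter windows of this length, 37.4% held at least 1 match, 11.7% at least 2 and 0.0791% at least 6. CCAAT is the core of the site bound by the factor NF-Y. The windows of Got2 and Mdh2 held none. Mdh2 held 1 match to TGACGTCA, the element bound by CREB factors, which 1.79% of all windows hold. No window of the 4 genes matched TNAAGGTCA, a site of the estrogen-related receptors (in 1.28% of all windows), the NRF1 motif (in 4.6%), or the E-box CACGTG (in 7.15%), searched on both strands. The enzymes that fell thus shared none of these 5 motifs across all 4 windows. These are matches of letters and were not tested as binding sites. The 2 windows listed for Gpd2 held none of the 5 motifs, and no window was available for Gpd1.

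Gpd1, the cytosolic glycerol 3-phosphate dehydrogenase, had 18918 and 23269 normalized counts in WT against 20492 and 20234 in KO. Both KO libraries lay between the WT libraries. Its log2 ratio was -0.051 (FDR 0.991) in the authors' deposited table, and the limma difference of -0.043 had a 95% interval of -0.43 to 0.34 (adjusted p = 0.916).

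Gpd2, the mitochondrial glycerol 3-phosphate dehydrogenase, had 5358 and 6613 normalized counts in WT against 6545 and 5315 in KO. The spread within each genotype was far wider than the gap between the means, and the libraries overlapped. Its log2 ratio was -0.013 (FDR 1) in the authors' deposited table, and the limma difference of -0.013 had a 95% interval of -0.39 to 0.36 (adjusted p = 0.975). The direction of Gpd1 and Gpd2 changed with the scaling of the libraries, at 0.0064 and 0.036 with library totals. For both genes the intervals leave room for a change of up to 0.43 on the log2 scale, so equal levels are not shown. The interval of Got2 did not overlap that of Gpd1 or Gpd2, while those of Got1, Mdh1 and Mdh2 did; whether the shuttles differ in their change was not tested as such.

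Gpd1 is also abundant in adipocytes, and adipocyte markers differed between the KO libraries. The 10 adipocyte markers summed to 24413 and 24826 normalized counts in WT, and to 29181 and 19295 in KO. None of the 10 passed the authors' FDR. Adiponectin (Adipoq) had 265 and 284 normalized counts in WT against 1089 and 306 in KO. Fabp4 made up most of each sum, and the median marker stood at a log2 level of 1.5 in KO library 1 and -0.64 in KO library 2, relative to the WT mean. Plin4, Pparg and Lipe were lower in both KO libraries than in either WT library, an order that held for 26.2% of all genes tested. The part of adipocytes in the level of Gpd1 was not tested. Of the brown fat markers Ucp1 was not listed, and Cidea was at 29.8 to 46.9 normalized counts. In whole muscle, fewer fibres of a kind and less RNA per fibre cannot be told apart.

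**Figure D2:**
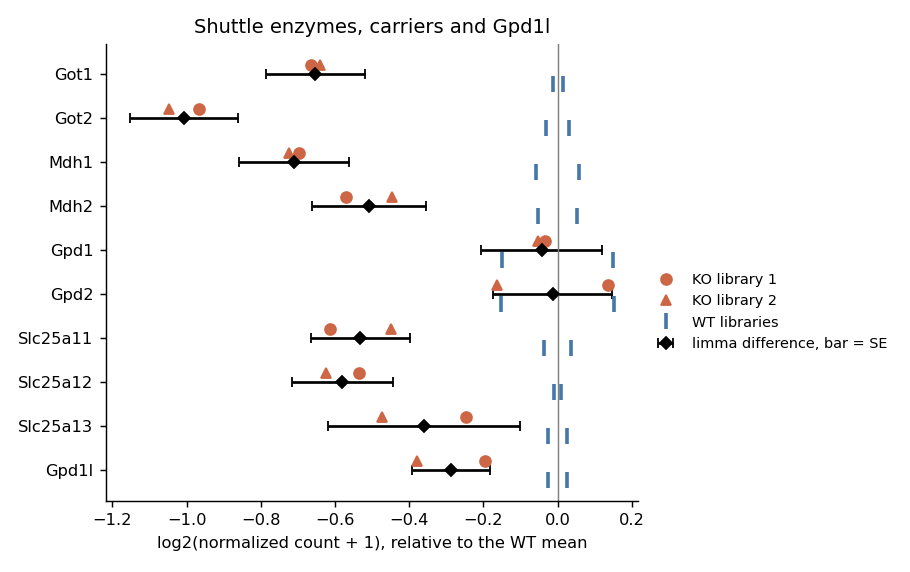
Level of each library on the log2(normalized count + 1) scale, relative to the WT mean, for the 6 enzymes, 3 carriers and Gpd1l. Diamonds are limma differences with their SE; the enzymes and carriers of the malate-aspartate shuttle lie left of 0 in both KO libraries, while Gpd1 lies near 0 and Gpd2 on either side of it.

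Comparing the cytosolic with the mitochondrial isoform inside each library removes the scaling between libraries. The Got1 to Got2 ratio of normalized counts was 0.563 and 0.577 in WT against 0.703 and 0.756 in KO. It was higher in both KO libraries than in either WT library. On the log2 scale it went from -0.81 ± 0.025 (SD, n = 2) to -0.46 ± 0.075, a difference of 0.35. The Mdh1 to Mdh2 ratio moved the other way, from 0.984 and 0.844 in WT to 0.835 and 0.752 in KO. That is a log2 difference of -0.20, and the nearest libraries of the 2 genotypes almost touched. Leaving out WT library 1 made it -0.090, leaving out WT library 2 made it -0.31, and leaving out KO library 2 made it -0.13.

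The Gpd1 to Gpd2 ratio was 3.53 and 3.52 in WT against 3.13 and 3.81 in KO. The WT libraries agreed closely, and the KO libraries lay on either side of them, for a log2 difference of -0.03. With KO library 1 left out that difference was 0.11. With 2 libraries against 2, the exact two-sided permutation test cannot go below 0.333, which was reached for Got and Mdh (adjusted p = 0.5 over the 3 pairs) and was 1 for Gpd. By the means, the mitochondrial isoform was reduced more among the aminotransferases and the cytosolic isoform more among the malate dehydrogenases, a contrast that these few libraries cannot test.

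**Figure D3:**
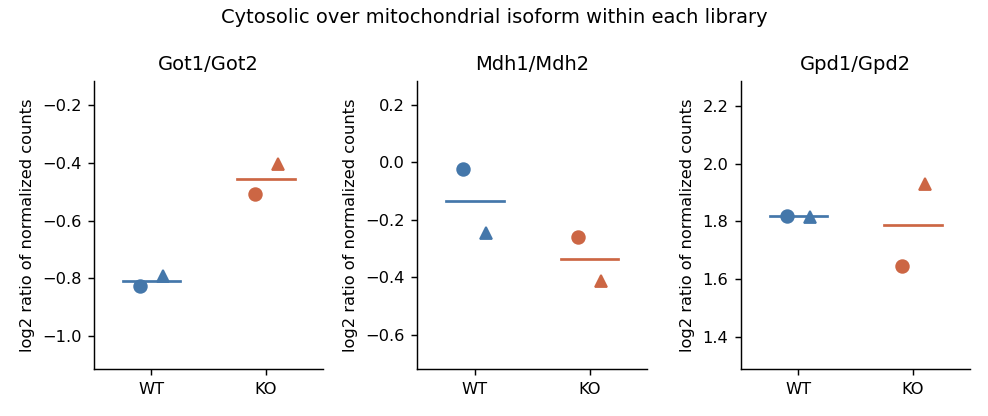
The log2 ratio of the cytosolic over the mitochondrial isoform in each library, circles for library 1, triangles for library 2 and lines for the mean; the 3 panels span the same range of log2 units. The Got1/Got2 ratio is higher and the Mdh1/Mdh2 ratio lower in both KO libraries, and Gpd1/Gpd2 overlaps.

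Levels were set side by side as normalized counts per kilobase of merged exons of the protein-coding transcripts in GENCODE M21, an annotation that may differ from the authors'. In WT the mean level fell in the order Mdh2 (20412), Mdh1 (12762), Got2 (11060), Got1 (7753), Gpd1 (7373) and Gpd2 (986). Got1 and Gpd1 overlapped over the WT libraries, and all other neighbours were separate. In KO the order was Mdh2 (14346), Mdh1 (7794), Gpd1 (7117), Got2 (5504), Got1 (4931) and Gpd2 (977), with no overlap between neighbours. Gpd1 thus stood below Got2 in both WT libraries and above it in both KO libraries.

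**Figure D4:**
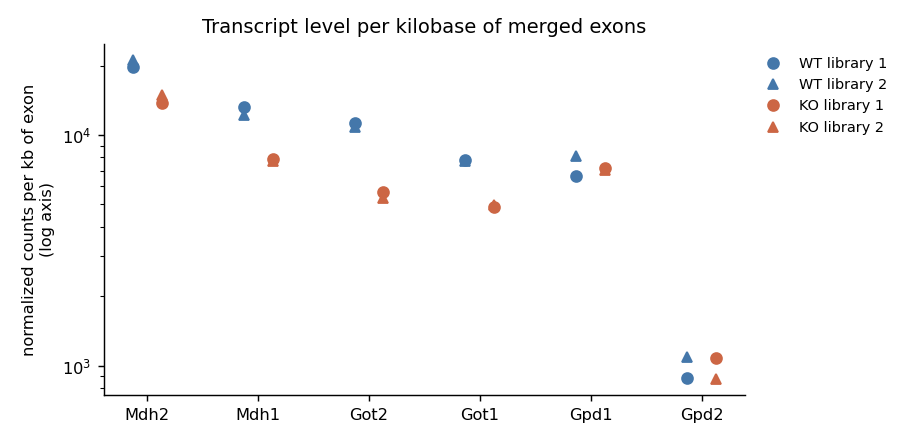
Level per kilobase of merged exons of the 6 enzymes, on a log axis, in order of the WT mean. The KO points of Mdh2, Mdh1, Got2 and Got1 sit below their WT points, and Gpd2 is lowest in every library.

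The genes lie on separate chromosomes, at chr19:43499753-43524605 (Got1), chr8:95864137-95888365 (Got2), chr11:21556692-21571934 (Mdh1), chr5:135778649-135790386 (Mdh2), chr15:99717593-99725007 (Gpd1) and chr2:57237678-57370719 (Gpd2) in mm10. Got2 shares its chromosome with Prmt7, the gene lost in KO, and whether that linkage bears on its level was not tested. The labels do not say whether reads were counted by strand, so overlapping genes cannot be kept apart. In GENCODE M21 the antisense gene Gm16537 overlaps Gpd1 over 6960 bases, and on the opposite strand of Gpd2 lie the pseudogene Gm13535 over 3123 bases and A930012O16Rik over 874 bases. Gm45760 overlaps Got2 over 1782 bases on the opposite strand, and the miRNA gene Gm22990 lies in Mdh1 over 89 bases. Wdpcp overlaps Mdh1 over 133 bases, and its deposited means were 87.1 and 91.7, far below those of Mdh1. Got2 has an annotated processed pseudogene, Got2-ps1, with which it could share reads.

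The carriers that complete the malate-aspartate shuttle fell as well. Slc25a12, the aspartate-glutamate carrier aralar of muscle and brain, had 16285 and 16473 normalized counts in WT against 11299 and 10622 in KO (FDR 0.0035 in the authors' deposited table). Slc25a11, the carrier of 2-oxoglutarate and malate, had 10673 and 11233 in WT against 7150 and 8015 in KO (FDR 0.00986, same table). For both carriers the KO libraries lay below the WT libraries, but limma gave adjusted p values of 0.0898 and 0.1. Slc25a13, the aspartate-glutamate carrier citrin of liver, was low at 52.9 and 51 in WT against 43.6 and 37.1 in KO (FDR 0.923). Gpd1l, a relative of Gpd1, had 1370 and 1321 in WT against 1175 and 1034 in KO (FDR 0.539). Of 8 carriers and related enzymes looked up, 5 were listed, 2 fell and 0 rose by the authors' FDR and 3 missed it, with a median log2 ratio of -0.53 against 0.0062 over all listed genes and -0.060 over the 3938 abundant genes.

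Other enzymes that share metabolites with the shuttles mostly did not pass. Beside the carriers above and each list below, 1.7% of all listed genes and 4.98% of the abundant genes passed as lower. Of 18 listed enzymes and carriers of malate, oxaloacetate, aspartate and glutamate, 1 fell, 0 rose and 17 did not pass, with a median log2 ratio of 0.031. The gene that fell was Adssl1, the muscle adenylosuccinate synthetase, which consumes aspartate in the purine nucleotide cycle, with 21619 and 20368 normalized counts in WT against 15666 and 14888 in KO. Its FDR in the authors' deposited table was 0.039. Of 10 listed genes on glycerol 3-phosphate and dihydroxyacetone phosphate, 1 fell and 0 rose, with a median of -0.30. It was Pgp, a phosphatase known to act on phosphoglycolate and glycerol 3-phosphate, from 1273 and 1340 to 811 and 987 (FDR 0.0326, same table).

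Of 9 genes of cytosolic NADH, lactate and related steps, 2 fell and 0 rose, with a median of -0.30. Ldhb, the heart-type lactate dehydrogenase subunit, counted 3245 and 3321 in WT against 1801 and 1892 in KO (limma adjusted p = 0.0272, FDR 9.12e-06 in the authors' deposited table). Ldhd, a mitochondrial flavoprotein that oxidises D-lactate and does not use cytosolic NADH, went from 1391 and 1441 to 738 and 619 (FDR 9.4e-08, limma adjusted p = 0.0193). Both limma calls were lost without WT library 1 (adjusted p = 0.113 for Ldhb and 0.0865 for Ldhd) or WT library 2 (0.0938 and 0.0524). Gapdh, which makes the NADH of glycolysis, had 217359 and 209469 in WT against 163754 and 183535 in KO (FDR 0.331), and Ldha, the muscle-type subunit, 71415 and 74686 against 64941 and 78443 (FDR 0.995).

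Mdh2 stands in the tricarboxylic acid cycle, and of 17 other genes of the cycle 10 fell and 0 rose, with a median log2 ratio of -0.47. For all 17 the genotypes were separate, with KO lower. That order held for 26.2% of all genes tested and 38.9% of the abundant genes. Citrate synthase (Cs) was at 28631 and 29327 normalized counts in WT against 19362 and 19862 in KO (FDR 0.00422 in the authors' deposited table). Also among those that fell were Ogdh, Dlst, Dld, Idh3a, Idh3b, Idh3g, Sdha and Sdhb, with deposited log2 ratios of -0.75 for Ogdh to -0.46 for Dld. With limma 0 of the 17 passed. This list holds genes that earlier results of these data had shown to fall, so it is not independent evidence of a direction.

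Gpd2 is 1 of several dehydrogenases that hand electrons to ubiquinone. Of 7 others, 3 fell and 0 rose, with a median of -0.28. Among them were Etfdh, which takes electrons from fatty acid oxidation, at 4862 and 4546 normalized counts in WT against 3021 and 2571 in KO (limma adjusted p = 0.0477, FDR 8.07e-05 in the authors' deposited table), and Sdha of complex II (FDR 0.0172), which is also counted in the cycle. The limma call of Etfdh was lost under every other scaling tried, without robust moderation and without X and Y genes (adjusted p = 0.0507 to 0.0686), and at 0.189 and 0.152 without WT library 1 or 2. Gpd2 did not pass beside them. Whether its change differs from theirs was not tested.

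**Figure D5:**
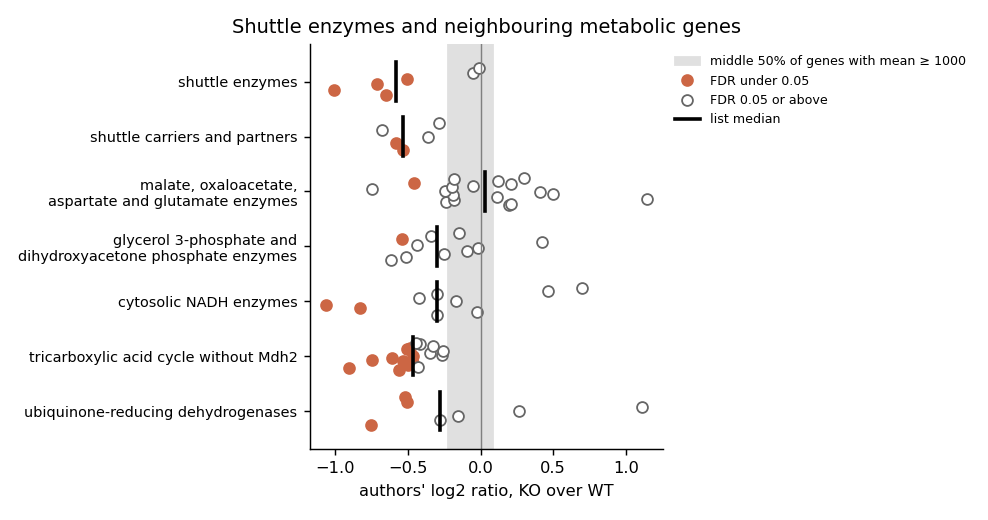
The authors' log2 ratio, KO over WT, of each listed gene in 7 groups, filled where the FDR was under 0.05, with a black bar at each group's median and a grey band for the interquartile range of all genes with a mean of at least 1000. The filled points all lie left of 0, and the enzymes of malate, oxaloacetate, aspartate and glutamate spread to both sides.

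Fibre markers moved beside these results. Myh1, the 2X myosin heavy chain, fell from 252508 and 246042 to 117179 and 110753 normalized counts, and Myh4, the 2B chain, rose from 232372 and 277492 to 444884 and 373640. Their FDRs in the authors' deposited table were 8.08e-13 and 0.0113. Myh2, the 2A chain, had 109972 and 31555 normalized counts in WT against 11272 and 7952 in KO (FDR 0.522), with a wide gap between the WT libraries. The 7 slow fibre markers summed to 7635 and 6016 in WT against 9361 and 7338 in KO. None of the 7 passed, while Tnnt1, Tnni1, Tnnc1 and Tpm3 were higher in both KO libraries than in either WT library. Of all genes tested, 51.8% were free of overlap between the genotypes in either direction. Myh7, Myl2 and Atp2a2 overlapped between the genotypes. Myl2 went the other way, with 993 and 489 normalized counts in WT against 720 and 461 in KO (deposited log2 ratio -0.33). The 5 Schwann cell markers summed to 7564 and 8023 in WT against 22336 and 10754 in KO, and the 5 fibro-adipogenic markers to 154657 and 131076 against 261938 and 207652, with Dpt and Col3a1 past the authors' FDR as higher. The 4 endothelial markers summed to 32782 and 31814 against 26867 and 26115, with Kdr past it as lower, and the 4 listed macrophage markers to 4077 and 2737 against 4301 and 3342. The part of any of these in the enzymes' levels was not tested.

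The genes with the most similar pattern were sought among 3937 other genes with a mean of at least 1000, by the root mean square difference of log2 levels relative to WT over the 4 libraries. Nearest to Got2 were Myl3, the ventricular and slow myosin light chain (0.034), and the ankyrin gene Ank2 (0.045). Within 0.1 of Got2 lay 9 genes, against 70 for Got1, 42 for Mdh1 and 125 for Mdh2. Among these enzymes the number was smaller the larger the fall, so it does not mark a pattern particular to Got2. Nearest to Mdh1 were Eif2s3x, a translation initiation factor subunit on the X chromosome (0.026), and Hadhb, a subunit of the mitochondrial trifunctional protein of fatty acid oxidation (0.028). Nearest to Mdh2 were Ppm1l (0.017) and Hadh, another enzyme of fatty acid oxidation (0.018), and nearest to Got1 were Plekhb2 (0.027) and the potassium channel gene Kcna7 (0.029). For Gpd1 they were Dpm1 (0.020) and Rgma (0.021), and for Gpd2 Mast4 (0.027) and Rasa4 (0.036), with 346 and 61 genes within 0.1. With 4 libraries many genes share a pattern, and the likeness is a description.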

How the data were processed

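Tibialis anterior RNA was sequenced on an Illumina instrument, per the labels' protocols. Coordinates are mm10, the build in the submitters' processing notes. Aligner, counter and gene annotation: not given in the sources used here. For 14617 genes the authors deposited normalized counts averaged by genotype (a signal), their log2 ratio, and a p-value with its FDR, made with DESeq per the table's name. 1 line was not analysed here.

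Each mean was solved for whole multiples of 1 step per library, within 1e-13 of the value. Every gene had exactly 1 solution with 2 steps, whereas 1 step explained 4.67% of the 300 lowest WT values and 5% of the KO values. Libraries of 1 genotype were not duplicates: chi-square per degree of freedom was 30.1 in WT and 27.4 in KO. The KO libraries differ in Y-linked transcripts, so they are not from the same RNA, but the sources tie no library to a mouse and nothing shows separate mice for WT. There p-values may reflect technical spread only.

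The calls are the authors' FDR under 0.05. limma 3.58.1 in R 4.3.3 was run on log2 of the recovered normalized count plus a pseudocount of 1, which understates the change of low genes, for genes averaging at least 10 (trend, robust, two-sided, Benjamini-Hochberg over 14053 genes). Recovery and fit were tested on simulated data. In the simulated fit, limma called 96% of 2-fold changes. The same spread was set there for every gene, so that share need not hold for these libraries. The members, lists and tests were chosen with earlier results of these data known. All 6 enzymes, the carriers, Gpd1l, every list gene past the FDR and the 2 nearest genes per enzyme are named, except some list genes that are not reported here, and other genes were chosen after their values were seen. Alternatives were other pseudocounts, filters, scalings, moderation, leaving out X and Y genes, and leaving out each library.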

Additional observations from a re-analysis of the deposited data

How the results depend on the processing

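With limma in place of the authors' FDR, the direction of Got1, Mdh1 and Mdh2 was kept at -0.65, -0.71 and -0.51 but none passed. The count over all genes went from 396 to 125, that of the enzymes from 4 to 1, that of the ubiquinone dehydrogenases from 3 to 1, and those of the carriers, the malate and aspartate group, the glycerol 3-phosphate group and the tricarboxylic acid cycle to 0. Of 18 partner genes past the authors' FDR, 3 passed in limma, and none of 239 alternative fits of the 20 named partner genes changed direction. Since 18 of those 20 had passed that FDR in these same libraries, a kept direction was largely set by their choice and is not separate evidence. Quantile normalization moved 9 of those 20 by over 1.5 times, with their median going from -0.53 to -0.43. Recomputing the adjustment or leaving out X and Y genes changed no call of the enzymes in the authors' table.

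Within limma, Got2 lost its call without robust moderation (-1.01) and after quantile normalization (-0.79), leaving 0 enzymes called each time, and its difference ran from -1.05 to -0.97 when a library was left out, with 0 to 1 enzymes called. Over all alternatives its adjusted p ran from 0.0281 to 0.173. Gpd1 turned to 0.0064 with library totals, 0.21 after quantile normalization and 0.067 with totals without the 20 most abundant genes, and ran from -0.19 to 0.11 with a library left out. Gpd2 turned to 0.036, 0.060 and 0.097 in the same settings and to 0.029 with the upper quartile, and ran from -0.17 to 0.14. The isoform log2 ratio difference ran from 0.30 to 0.41 for Got, -0.31 to -0.090 for Mdh and -0.17 to 0.11 for Gpd. The number of genes called was 27 without robust moderation, 206 with totals without the 20 most abundant genes, a scaling that moved the median of all genes by 0.112, and 11 to 381 with a library left out, where a lone library is assumed to vary like the others. The cause of these changes was not tested. Leaving out a library could not be run on the authors' FDR, which was deposited as computed. No paired analysis was possible because the recovered libraries cannot be tied to samples, and the labels carry no replicate number.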
